A study of Sus scrofa domesticus with 4 samples.

Results

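Adipokines are peptide signals best known from fat tissue, and orexins are peptides of hypothalamic neurons that promote arousal and feeding. The group of 10 genes described here holds the ligand genes RARRES2 (chemerin), ADIPOQ (adiponectin), NAMPT (visfatin) and HCRT (the common precursor of the orexins), and the receptor genes CMKLR1 (for chemerin), ADIPOR1 and ADIPOR2 (for adiponectin), LEPR (for leptin), HCRTR1 and HCRTR2 (for orexins). They were found by the RefSeq accession printed for each array probe, which gave 15 probes of 43603 in all, and 10 genes of the 3029 that the array's probes could be named for. The chemerin and orexin receptors signal through G proteins and the leptin receptor through JAK and STAT proteins, while the adiponectin receptors act on AMP-activated kinase and ceramides. These peptides are studied as links between energy reserves and reproduction, and the pituitary is among the tissues they reach.

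The tissue was the anterior lobe of the pituitary of 8 mature gilts, sows before their first litter, bred from Large White and Polish Landrace. The pregnant group was 4 naturally bred gilts killed on days 15 to 16 of pregnancy, in which conceptuses were found, and the control group was 4 cyclic gilts killed on days 15 to 16 of the estrous cycle. The labels name no other treatment of either group. Each of 4 two-colour arrays carried RNA of 1 pregnant and 1 cyclic gilt, so an array is 1 pair, and the label fields give pregnant RNA the dye Cy3 on arrays 1 and 3 but Cy5 on 2 and 4. The labelling protocol's text puts pregnant RNA in Cy3 throughout, but the signs of the deposited ratios follow the label fields, as is done here. Ratios below are pregnant over cyclic on the log2 scale, each ± a standard error from limma's fit to the 4 arrays, in which every gene had its own dye effect. That error can be smaller than the spread between arrays. Ratios given for single arrays, and medians of them, were not corrected for a gene's dye effect. Levels are normalized log2 intensities of 1 probe, which compare animals but not genes. The lobe is a mixture of cell types, so fewer cells of a type and less RNA per cell cannot be told apart.

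The labelled tissue was checked against hormone and lineage genes of the anterior lobe, of which 10 of 11 were on the array with a named probe and all 10 were tested, GH1, PRL, POMC, CGA, LHB, FSHB and TSHB among them. OXT, which marks the neural lobe, was also well above background in 8 of 8 channels, and AVP in 3. Between 50.4% and 66.5% of the spots of a channel were well above background. No spot was saturated. For 21 probes above background that were spotted 5 times on an array, the median SD of the log2 ratio between spots was 0.0797 to 0.128 by array. Each probe of the 10 genes had 1 spot per array, so its own spread between spots is not known. Every ratio rests on 4 arrays.

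Of the 10 genes, 5 gave a signal that could be compared. RARRES2, ADIPOR1, NAMPT and HCRT were well above background in all 8 channels, and ADIPOR2 in 7 of 8. CMKLR1, ADIPOQ, LEPR, HCRTR1 and HCRTR2 were not well above background in any of the 8 channels (0 of 8 for each of their 7 probes). Among all named genes 366 of 3029, or 12.1%, had no probe above background in any channel.

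ADIPOQ, made almost wholly by fat cells, stayed near background. Its first probe ranged from 56.0 to 98.0 scanner units over the 8 channels and its second from 47.0 to 91.0, against local backgrounds of 27.0 to 40. PLIN1 and CIDEC, a coat protein and a fusion protein of fat droplets, were likewise above background in 0 channels. LEP, the leptin gene, was above background in 8 of 8. Of 10 adipocyte markers on the array 7 were tested, and their summed level ranged from 2668 to 5812 in pregnant and from 3082 to 4940 in cyclic animals. By ratio 4 were above 0 and 3 below, with a median of 0.0701. At an unadjusted p under 0.05, 0 were higher and 1 was lower. The lower one was PNPLA2, at -0.61 ± 0.22, with array 2 at -1.60.

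The undetected receptors lay in the same range. CMKLR1, the main signalling receptor of chemerin, had spot signals from 46.0 to 77.0, and LEPR, a cytokine-type receptor, from 45.0 to 68.0. HCRTR1, which prefers orexin A, ranged from 51.5 to 85.0. For HCRTR2, which binds orexins A and B, the probes ranged from 37.5 to 67.5 and from 50.5 to 95. The lowest signal that the scanner software called well above background was 53.0 to 64.0 in the red channels and 71.0 to 86.5 in the green channels. Some spots of the undetected genes were brighter than the lowest called signal of their channel, but none of them was itself called well above background. By that call a level of these 5 genes was not detectable with these probes. No ratio is given, and a low level is not shown to be absent.

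**Figure D1:**
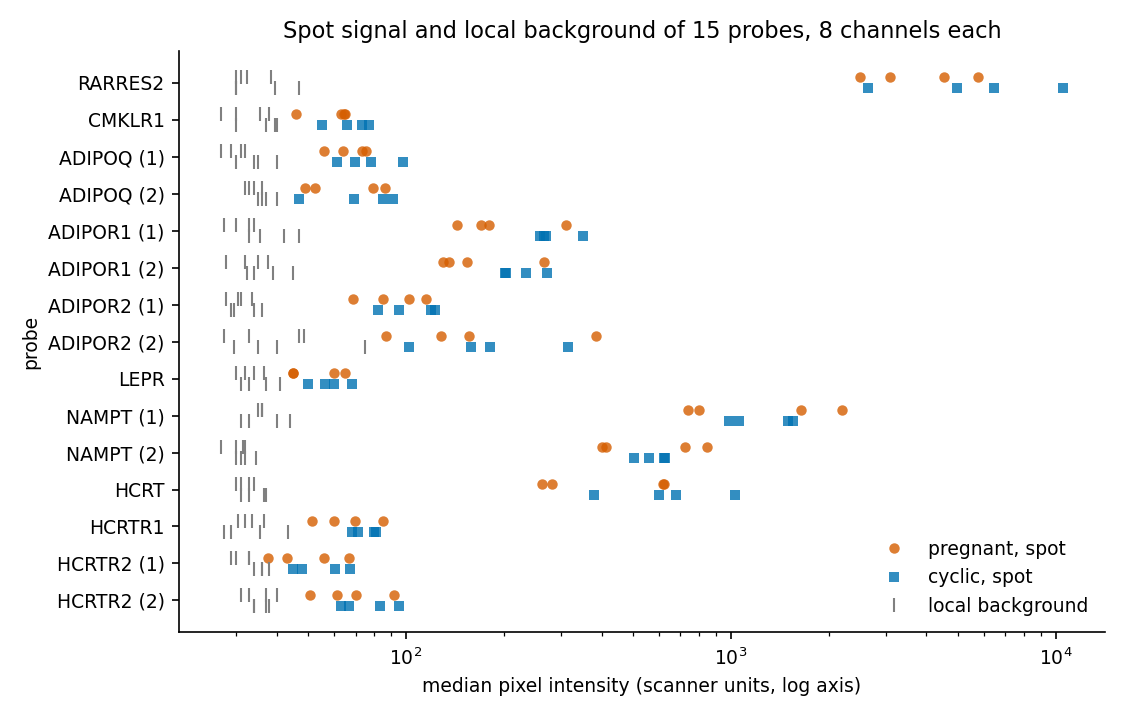
Median pixel intensity of each spot (x axis, scanner units, log axis) for the 15 probes of the 10 genes, with pregnant animals as circles, cyclic animals as squares and the local background of each spot as grey ticks; numbers in brackets tell apart probes of a gene. The RARRES2 spots lie between 2495 and 10510, while the probes of CMKLR1, ADIPOQ, LEPR, HCRTR1 and HCRTR2 are at most 98.0 and lie close above their local background.

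Pregnant and cyclic animals were compared for the measured genes in a fit over 18852 features. Of the 5 genes tested, 0 passed an adjusted p of 0.05 (limma with Benjamini-Hochberg adjustment), as did 0% of all features. RARRES2 was the 1 gene at an unadjusted p under 0.05, in the direction of a lower level in pregnancy. Of all features 7.21% were at that threshold, 4.18% lower and 3.03% higher, and with 5 genes tested a count of 1 is too small to set apart from that background. The lower side held 57.9% of them, against 80.5% with median centring in place of loess. RARRES2, ADIPOR1 and HCRT had ratios below 0 on 4 of 4 arrays, which was the case for 7.43% of all features. For each of the 5 genes the levels of pregnant and cyclic animals overlapped, and 1.88% of all features had groups that did not. The median ratio of all features was -0.0175.

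RARRES2 encodes chemerin, a chemoattractant for immune cells and an adipokine. Its level was 12.68, 12.40, 12.27 and 11.94 in the cyclic animals of arrays 1 to 4. In the pregnant animals of the same arrays it was 12.10, 12.26, 11.93 and 11.64. The pregnant animal was the lower on every array, but the groups overlapped, with means of 12.32 ± 0.31 (SD, n = 4) in cyclic and 11.98 ± 0.26 (SD, n = 4) in pregnant animals.

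The RARRES2 ratios were -0.58, -0.14, -0.34 and -0.30 on arrays 1 to 4, and array 1 was the lowest. The estimate was -0.34 ± 0.10, a fold of 0.791 with a 95% interval of 0.658 to 0.950 (limma, unadjusted p = 0.0216, adjusted p = 0.647). Of all features, 522 had a lower p. The unadjusted call ended without array 1, at -0.28 (limma, unadjusted p = 0.128), and without array 4, at -0.30 (unadjusted p = 0.0891). It also ended with the processed signals of the scanner software, at -0.35 (limma, unadjusted p = 0.0630). RARRES2 had 1 named probe on the array, so no other named probe can be set beside it.

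Markers of cell types of the lobe are set beside this ratio and that of ADIPOR1. Of the 10 hormone and lineage genes 8 had estimates below 0, and their median ratio was -0.34, with medians of -0.55, 0.0693, -0.23 and -0.17 on arrays 1 to 4, lowest on array 1 as RARRES2 was. Of these, 1 was at an unadjusted p under 0.05, LHB, the beta subunit of luteinizing hormone, at -0.42 ± 0.15. Their summed level ranged from 875496 to 1390510 in pregnant and from 1099700 to 1672070 in cyclic animals. Of 4 endothelial markers tested 3 had estimates below 0, with a median of -0.20 and 0 at that threshold, and array medians of -0.32, 0.24, -0.42 and -0.00159. Their summed level ranged from 4265 to 5647 in pregnant and from 4219 to 7350 in cyclic animals. CDH5, the endothelial marker above 0, was at 0.51 ± 0.25. Of 8 macrophage markers tested 5 had estimates below 0 and 3 above, with a median of -0.0579. Their array medians were 0.0402, 0.0448, -0.0545 and -0.17. AIF1 was the 1 macrophage marker at that threshold, at 0.38 ± 0.14 and above 0 on 4 of 4 arrays. Array medians still hold the dye effects of their genes, and the endothelial ones were lower on arrays 1 and 3, with pregnant RNA in Cy3. The part of these cell types in the RARRES2 and ADIPOR1 values was not tested.

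Other receptors of chemerin are GPR1, which signals, and CCRL2, which binds the peptide without signalling; they were picked for that role. GPR1 had ratios of -0.55, 0.51, -0.18 and 0.33 on arrays 1 to 4. They were below 0 where pregnant RNA was in Cy3 and above 0 where it was in Cy5, and the estimate was 0.0281 ± 0.114. CCRL2 was above background in 3 of 8 channels and was not tested.

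**Figure D2:**
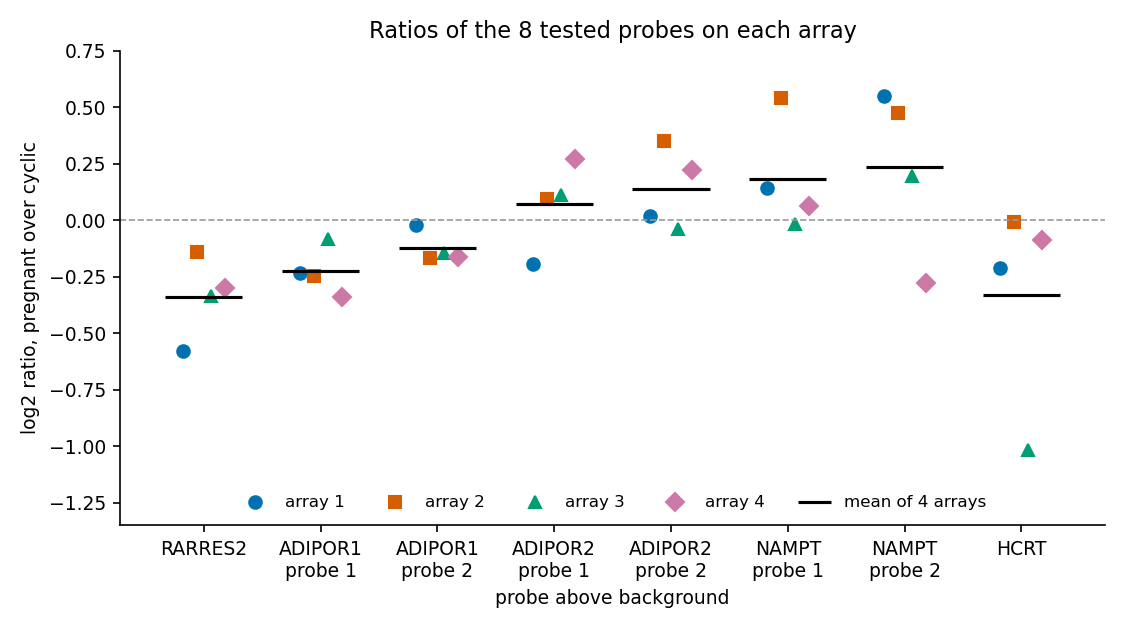
Log2 ratio of pregnant over cyclic (y axis) on each of the 4 arrays for the 8 probes that were tested, with 1 symbol per array and a black line at the mean. RARRES2, both ADIPOR1 probes and HCRT have all 4 arrays below 0, HCRT with array 3 far below the others at -1.02, while ADIPOR2 and NAMPT lie on either side of 0.

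HCRT encodes the precursor from which the orexins are cut, and its best known source is a small group of neurons in the lateral hypothalamus. Its probe was well above background in every channel, with spot signals from 262.0 to 1027 scanner units. Its level was 8.70, 9.21, 9.70 and 9.08 in the cyclic animals and 8.48, 9.20, 8.68 and 8.999 in the pregnant animals of arrays 1 to 4. The cyclic animal of array 3 was the highest of all 8, and the groups overlapped.

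The HCRT ratios were -0.21, -0.00674, -1.02 and -0.0856 on arrays 1 to 4, so array 3 carried most of the mean. The estimate was -0.33 ± 0.16, a fold of 0.795 with a 95% interval of 0.603 to 1.05 (limma, unadjusted p = 0.0874, adjusted p = 0.647). Without array 3 it was -0.13 (limma, unadjusted p = 0.436), and without array 1 it was -0.53 (unadjusted p = 0.0150). Of 7 hypothalamic and neural lobe markers on the array 5 were tested, with a median ratio of -0.11. Their summed level ranged from 13773 to 21290 in pregnant and from 16108 to 22582 in cyclic animals, and GAD1 was above background in 0 channels. GAD2, an enzyme of GABA synthesis and the marker of lowest p, had ratios of -0.38, 0.0711, -0.91 and 0.0475, and was lowest on array 3, as HCRT was. Both genes were lower on arrays 1 and 3, with pregnant RNA in Cy3, than on arrays 2 and 4. The fitted dye effect of HCRT was 0.28 (red over green), and the part of dye in this likeness was not tested. OXT, the next marker by p, had ratios of -0.67, -0.62, 0.0249 and -0.16, and was not low on array 3. The part of neural tissue in the HCRT values was not tested.

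ADIPOR1, the adiponectin receptor coupled mainly to AMP-activated kinase, was measured by 2 probes. The brighter probe had levels of 7.78, 7.94, 7.93 and 8.48 in cyclic and 7.55, 7.70, 7.85 and 8.14 in pregnant animals of arrays 1 to 4. The pregnant animal was the lower on every array, by less than the levels varied between arrays, and the groups overlapped. Its ratios were -0.23, -0.25, -0.0812 and -0.34, with an estimate of -0.22 ± 0.10, a fold of 0.856 with a 95% interval of 0.720 to 1.02 (limma, unadjusted p = 0.0689, adjusted p = 0.647).

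The dimmer ADIPOR1 probe had ratios of -0.0224, -0.16, -0.14 and -0.16, also below 0 on every array. Fitted with every probe as its own feature, it stood at -0.12 ± 0.0984 (limma, unadjusted p = 0.262). The share of all probes at an unadjusted p under 0.05 was 8%, and 0% passed adjustment. Background parameters taken from all spots brought the brighter probe to -0.0680 (limma, unadjusted p = 0.138), and without a filter on dim probes it was at -0.22 with an unadjusted p of 0.0299.

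ADIPOR2, the receptor linked to PPAR-alpha and fatty acid oxidation, did not share the sign of ADIPOR1. Its brighter probe had levels of 6.72, 8.23, 7.47 and 7.002 in cyclic and 6.74, 8.58, 7.43 and 7.22 in pregnant animals of arrays 1 to 4. Array 2 was the highest in both animals, with spot signals of 384.5 in the pregnant and 315.0 in the cyclic channel. The dimmer probe did not show this, its array 2 levels being 6.89 and 6.80.

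The ratios of the brighter ADIPOR2 probe were 0.0208, 0.35, -0.0403 and 0.22, and those of the dimmer probe -0.19, 0.0955, 0.11 and 0.27. Each was above 0 on 3 of 4 arrays, but the array below 0 was array 3 for the brighter and array 1 for the dimmer probe. The estimate was 0.14 ± 0.0967, a fold of 1.10 with a 95% interval of 0.928 to 1.31 (limma, unadjusted p = 0.209, adjusted p = 0.687), and 0.0721 ± 0.111 for the dimmer probe. For both probes 3 of the 4 pregnant channels were above background. With background parameters from all spots the estimate was 0.00499, and with the processed signals it was 0.22.

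The ratio of ADIPOR1 lay below that of ADIPOR2 on 4 of 4 arrays. The differences were -0.25, -0.60, -0.0408 and -0.56, with a mean of -0.36 ± 0.26 (SD, n = 4). An exact permutation test, two-sided, that flips the signs of the 4 differences gave p = 0.13, the lowest value that this test can reach with 4 arrays. The test had no dye term. The differences were further below 0 on arrays 2 and 4, with pregnant RNA in Cy5, than on arrays 1 and 3. Fitted dye effects (red over green) were -0.0679 for ADIPOR1 and 0.15 for ADIPOR2, so the SD holds dye as well as spread between pairs. With background parameters from all spots the difference was -0.0730. The comparison of HCRTR1 with HCRTR2 could not be made, since neither was above background.

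NAMPT, the rate-limiting enzyme of NAD salvage that is also secreted as visfatin, was measured by 2 probes. The brighter probe had levels of 9.87, 9.99, 10.25 and 10.60 in cyclic and 10.01, 10.53, 10.23 and 10.66 in pregnant animals of arrays 1 to 4. The groups overlapped, and array 4 was the highest in both. Its ratios were 0.14, 0.54, -0.0158 and 0.0642, with array 2 apart from the others, and the estimate was 0.18 ± 0.12, a fold of 1.14 with a 95% interval of 0.915 to 1.41 (limma, unadjusted p = 0.193, adjusted p = 0.680). Without array 2 it was 0.0637, without array 4 it was 0.30, and with background parameters from all spots it was 0.0576.

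The dimmer NAMPT probe gave 0.55, 0.47, 0.20 and -0.28 and an estimate of 0.24 ± 0.16 (limma, unadjusted p = 0.193). The probes of this gene agreed in sign on arrays 1 and 2. They differed by -0.41, 0.0680, -0.21 and 0.34 on arrays 1 to 4 (brighter minus dimmer), which is more than the SD between spots of 1 probe on 3 of 4 arrays. Macrophages are cells known to express NAMPT. Summed levels of 8 macrophage markers ranged from 7810 to 13122 in pregnant and from 8604 to 13150 in cyclic animals. By ratio 3 of these markers were above 0 and 5 below, with a median of -0.0579. At an unadjusted p under 0.05, 1 was higher and 0 were lower. The higher one, AIF1, had ratios of 0.37, 0.80, 0.23 and 0.13 on arrays 1 to 4. The part of macrophages in the NAMPT values was not tested.

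**Figure D3:**
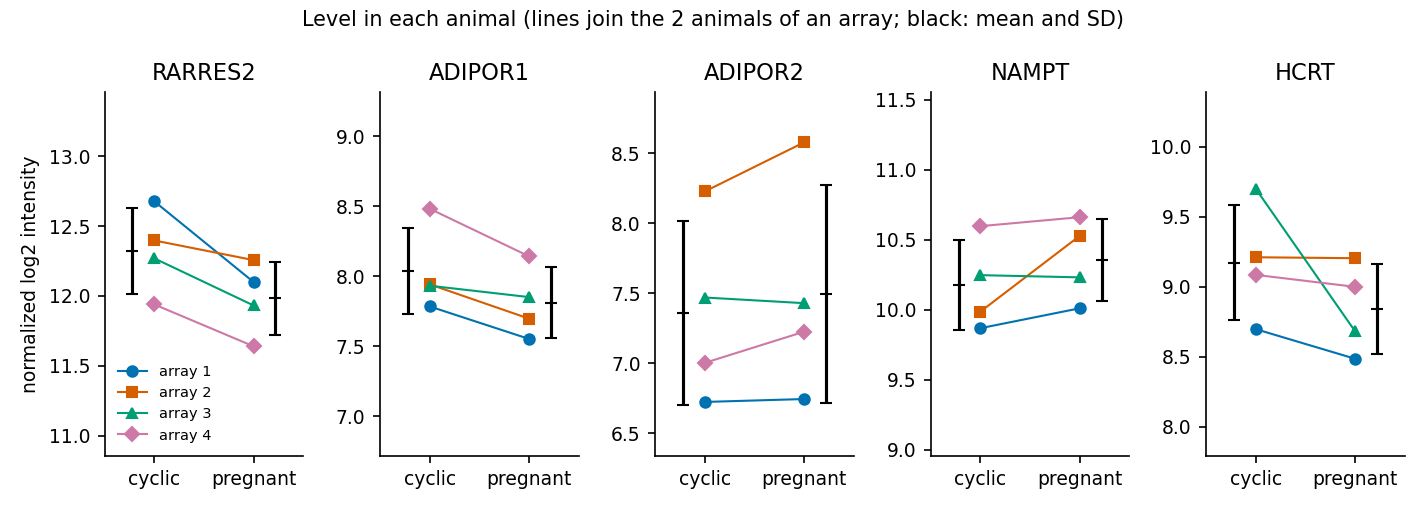
Normalized log2 intensity (y axis, each panel spanning the same width) of the 5 tested genes in the cyclic and pregnant animal of each array, joined by a line, with the mean and SD of each group in black. All 4 lines slope down for RARRES2, ADIPOR1 and HCRT, the 2 groups overlap in every panel, and array 2 of ADIPOR2 stands above the other arrays in both animals.

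The median spread of all features was an SD of 0.268 between the 4 array ratios. RARRES2 (SD 0.180), ADIPOR1 (0.107), ADIPOR2 (0.181) and NAMPT (0.248) lay below it and HCRT (0.466) above it. The 90th percentile of the absolute ratio of all features was 0.338, and the estimates of RARRES2 and HCRT were about of this size.

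Genes that act with these ligands and receptors were read from 7 lists, and 0 of their members passed the adjusted threshold. Of 9 other adipokines tested, 0 were higher and 1 was lower at an unadjusted p under 0.05, and the median ratio was -0.0303. That gene was RBP4, the retinol carrier, at -0.66 ± 0.20 with ratios of -0.64, 0.12, -1.46 and -0.66. LCN2, a siderophore-binding lipocalin, stood at -0.51 ± 0.22, with array 1 at -1.66. LEP, outside the naming rule but the ligand of LEPR, had ratios of -0.31, -0.15, 0.0436 and 0.36 and stood at -0.0135 ± 0.134.

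Of 8 other adipokine receptors 1 was higher and 0 were lower, with a median of 0.0402. TLR4, the receptor of bacterial endotoxin, was at 0.34 ± 0.12 and above 0 on 4 of 4 arrays. STRA6, the receptor of the retinol carrier, was at -0.34 ± 0.14 and below 0 on 4 of 4 arrays.

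In leptin receptor signalling 11 genes were tested, 1 higher and 1 lower, with a median of 0.0473. AKT1, a kinase downstream of many receptors, was at -0.40 ± 0.16, from ratios of -0.19, -1.03, -0.15 and -0.23. JAK2 and STAT3, outside the naming rule but the core of the leptin pathway, were at 0.16 ± 0.11 and 0.0785 ± 0.118.

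Of 14 genes of adiponectin receptor signalling 1 was higher and 0 lower, with a median of 0.0229. PRKAB2 and PRKAG1, which encode regulatory subunits of AMP-activated kinase, were at 0.31 ± 0.10 and -0.19 ± 0.0981. APPL1, also outside the rule, is the adaptor that binds the adiponectin receptors and stood at 0.10 ± 0.11.

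Of 7 genes of NAD synthesis and use 0 were higher and 1 lower, with a median of -0.14, all 7 being sirtuins, deacylases that consume NAD. SIRT5 was at -0.37 ± 0.12 and SIRT7 at -0.33 ± 0.14, the latter with array 2 at -0.87. In orexin receptor signalling 0 of 8 genes were at that threshold, with a median of -0.0267. GNAI2, an inhibitory G protein subunit, was at -0.55 ± 0.25 with array 2 at -1.54, and RGS4, which shortens G protein signals, at 0.40 ± 0.22 with arrays between -0.49 and 1.29.

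Of 12 feeding peptides and their receptors 0 were higher and 1 lower, with a median of -0.0109. CARTPT, the precursor of an appetite-reducing peptide, was at -1.43 ± 0.18 and below 0 on 4 of 4 arrays. NPW, a neuropeptide, was at -0.30 ± 0.15, and its 1 other probe had the opposite sign. The shares of these lists at the threshold can be read against the 7.21% of all features.

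The 2 named genes whose level over the 8 animals was most like each of the 5 genes, after the mean of each dye was taken out, were looked up among 2405 others. For RARRES2 they were FAM110D (Pearson r = 0.956) and SRSF1 (0.943), and for ADIPOR1 KIAA1468 (0.967) and COX7C (0.964). For ADIPOR2 they were FCER1G (0.980) and EDNRA (0.961), for NAMPT ACVR2A (0.988) and KISS1R (0.986), and for HCRT DUOX1 (0.970) and KLK1 (0.969). Animals of an array share its hybridisation, and with 8 points high values are found among so many genes, so these are descriptions only.

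**Figure D4:**
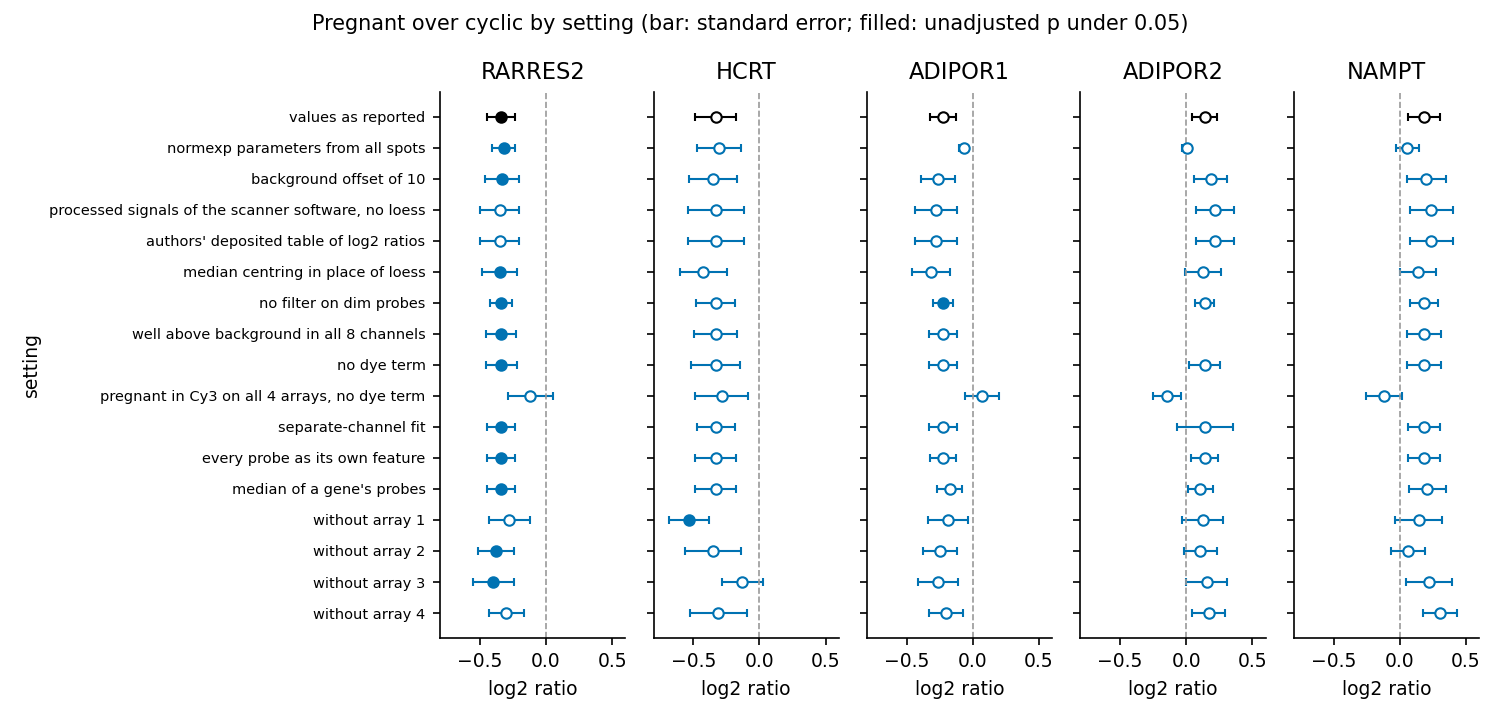
Estimated log2 ratio of pregnant over cyclic (x axis) with its standard error for the 5 tested genes under each way of preparing the values (y axis), filled where the unadjusted p was under 0.05 and in black as reported. RARRES2 and HCRT stay below 0 in every setting drawn, while ADIPOR1, ADIPOR2 and NAMPT change sign when pregnant RNA is taken as Cy3 on all arrays.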

How the data were processed

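The members and gene lists were chosen with earlier results of these data known. Scanner files of 4 arrays as deposited hold median spot and local background intensities and processed intensities that the file headers credit to Agilent's Feature Extraction software, release 10.7.3.1. The authors' deposited value table holds log2 ratios, and for 43553 probes spotted once it equalled processed pregnant over processed cyclic within 0.001 on every array by the label fields of the samples. The labelling protocol's text gives pregnant RNA Cy3 throughout, and that orientation was kept as an alternative.

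Background was corrected by normexp (offset 50) on median intensities, with parameters estimated without spots flagged as outliers in a channel, and ratios were normalized by loess (span 0.3) with control spots at weight 0 in limma 3.58.1 and R 4.3.3, with data.table (version 1.17.8) and jsonlite 2.0.0. Outlier spots (26 to 63 per array) were left out. Kept were probes usable on all arrays whose signal was well above background in 4 or more of 8 channels (25138 of 43603). Symbols came from RefSeq accessions of Sscrofa11.1 (6700 probes), and the probe of highest mean intensity stood for a gene. The array files name no genome build, so no positions are given. The fit held a pregnancy and a dye term, with Benjamini-Hochberg adjustment over 18852 features, 2406 of them named. Levels per animal followed Aquantile normalization. The fit was tested on simulated data. Named genes were all 10 members, the 2 of lowest p in each list, and the 2 most alike in level. Markers, GPR1, CCRL2, LEP, JAK2, STAT3 and APPL1 were named for their role, outside this rule, with values known. One gene that this rule names is not reported here. Arrays lay on 1 slide, and each gilt was sampled once.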

Additional observations from a re-analysis of the deposited data

Results flagged for a closer look

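Of 38 groups of 4 values checked, 2 held a value whose gap to its nearest neighbour took more of the range than the 95% critical value of Dixon's test, and chance gives about 1 in 20. The dimmer ADIPOR1 probe was at -0.0224 on array 1, nearer to 0 than the other 3 arrays. AKT1 was at -1.03 on array 2, below the other 3 arrays.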

How the results depend on the processing

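The 5 ratios kept their sign under 16 alternatives (15 for ADIPOR2, not tested where all 8 channels had to be above background), except that pregnant RNA as Cy3 on all arrays turned ADIPOR1 to 0.0679, ADIPOR2 to -0.15 and NAMPT to -0.12; there RARRES2 was -0.12 (limma, unadjusted p = 0.511). RARRES2 kept its unadjusted call under 11 alternatives and lost it under 5. Adjusted p ranged from 0.281 to 1.00 over these. Members at an unadjusted p under 0.05 numbered 0 with the processed signals, the authors' deposited log2 table and the Cy3 orientation, 2 without a filter, and 0 to 1 without 1 array, the 1 being HCRT without array 1 and RARRES2 without array 2 or 3. In these fits with a dye term the lone array of an orientation counts as much as the other 2 together. Over all features, limma's adjusted count of 0 (1360 at an unadjusted p under 0.05) became 2 with an offset of 10 and 3 in the separate-channel fit. The unadjusted count became 2335 of 35784 without a filter, 2499 in the separate-channel fit, and 617 (without array 2) to 2174 (without array 4) with 1 array left out. ADIPOR1 minus ADIPOR2 was -0.0730 with background parameters from all spots and -0.42 to -0.31 without 1 array. With pregnant RNA as Cy3 on all arrays the order was reversed, with ADIPOR1 at 0.0679 and ADIPOR2 at -0.15. Each array is itself the pair, so no replicate block could be added. Signal near background limits ADIPOR2 and the 5 undetected genes.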
